A study of Rattus norvegicus with 30 samples.

Results

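Rat chromosome 12 was contrasted with chromosome 15 in the histone ChIP-seq peak lists of the embryonic day (E) 14.5 brain cortex. The pair was chosen on these data, because they were the autosomes at the ends of the HFD over control ratio of H3K27me3 peak counts, and every peak on them was taken. Chromosome 12 held 60354 and chromosome 15 held 49269 of the 1549251 peaks in the 10 lists, which is 3.90% and 3.18%. For H3K27me3 itself, 2218 of 57604 control peaks and 1641 of 49072 HFD peaks lay on chromosome 12. On chromosome 15 there were 1701 control and 1619 HFD peaks. The order of the chromosomes by this ratio, and each other H3K27me3 difference between the diets, is therefore a description and carries no test.

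The embryos were of Wistar rats, whose dams were fed either normal chow (control) or a high-fat diet (HFD) with 60% of calories from fat, 20% from protein and 20% from carbohydrate. The frontal lobe of the cortex was dissected, and a replicate was a pool of the cortices of a whole litter. 5 antibodies (against total H3, pan H4, H3K27me3, H3K4me3 and H4K16Ac) were used with 3 libraries per diet, 30 libraries in 10 groups, and 1 library that carries labels of both diets, in the total H3 set, was taken as control by its title. For each antibody and diet the authors called peaks on the 3 libraries together and gave 1 list. The spread between libraries is therefore not in the lists, no difference was tested, and the 95% intervals given here cover counting error only. The cortex label could not be checked against marker genes, because no gene annotation of the build of the files (rn6) was used here.

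H3K27me3, trimethylation of lysine 27 of histone H3, is placed by the Polycomb complex that contains EZH2 and is known for keeping developmental genes silent. H3K4me3 marks the start sites of active genes and of genes that are poised for activation. Where both lie on the same start site, the site is called bivalent, a state common at developmental regulators in neural progenitors. H4K16Ac, acetylation of histone H4, is known for loosening the packing of nucleosomes, and the antibodies to total H3 and pan H4 recognise the histones with or without these marks.

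Chromosome 12 was the shortest autosome and the most densely covered by peaks. Its length, taken as the largest peak end in the lists, was 52.7 Mb, or 2.01% of the autosomes, against 111 Mb or 4.25% for chromosome 15. The control list held 42.1 H3K27me3 peaks per Mb on chromosome 12 (interval 40.3 to 43.9) and 15.3 on chromosome 15 (14.57 to 16.04). The density of chromosome 12 ranked 1 of the 20 autosomes in all 10 lists, while that of chromosome 15 ranked 19, or 18 in the HFD H3K27me3 list. The next densest autosome stood at 33.6 control H3K27me3 peaks per Mb. Chromosome 12 also stood clear of it in the HFD list, by 1.19-fold.

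Over all deposited peaks, the gap in density between the chromosomes was narrower in the HFD list for H3K27me3. Chromosome 12 held 2.75 times as many control peaks per Mb as chromosome 15 (2.58 to 2.93) and 2.14 times as many HFD peaks (1.996 to 2.29). Among peaks with −log10 q of 5 or more the direction turned, with 2.36 in control (2.08 to 2.68) and 5.28 in HFD (2.23 to 13.8), where 20 and 8 peaks were left and the intervals overlap. For pan H4 it was wider in the HFD list, at 2.85 (2.77 to 2.94) against 2.47 in control (2.40 to 2.55), and these intervals do not overlap. H3K4me3 gave 2.35 in control and 2.43 in HFD, total H3 gave 2.90 and 2.82, and H4K16Ac gave 2.40 and 2.35, each with overlapping intervals between the diets.

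**Figure D1:**
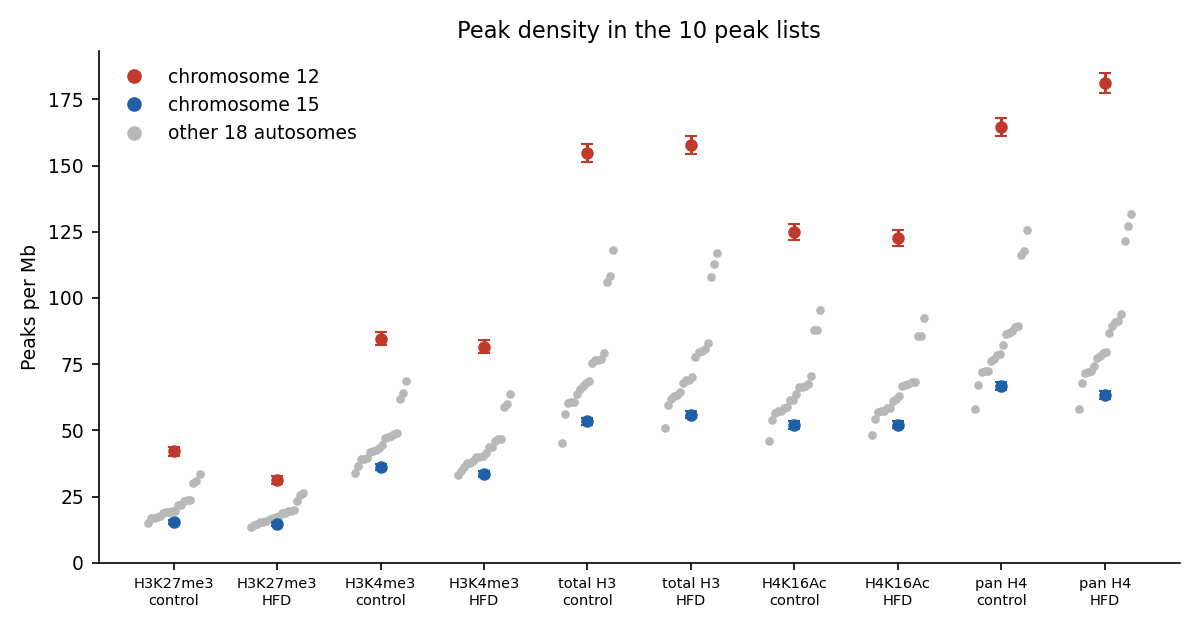
Peaks per Mb (vertical axis) in the 10 peak lists, grouped by antibody and diet, for chromosome 12, chromosome 15 and the other 18 autosomes, which are spread sideways in rising order. Bars are 95% Poisson intervals, and chromosome 12 lies above every other autosome in each list, at 42.1 for control H3K27me3 and 181 for HFD pan H4.

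The share of each chromosome under a mark followed the same order. Control H3K27me3 peaks covered 3.56% of chromosome 12 and 1.27% of chromosome 15, and HFD peaks covered 1.998% and 0.887%. H4K16Ac, which was called in broad regions, covered 17.0% of chromosome 12 in control and 15.4% in HFD, against 5.20% and 5.11% of chromosome 15. Between peaks, the median gap was 11405 bp for control H3K27me3 on chromosome 12 and 30064 bp on chromosome 15.

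H3K27me3 peaks were narrower in the HFD list on both chromosomes. Their median width went from 701.5 bp in control to 471 bp in HFD on chromosome 12, and from 667 bp to 469 bp on chromosome 15. Peaks of 2 kb or more made up 3.88% of the control H3K27me3 peaks of chromosome 12 and 0.975% of its HFD peaks, while on chromosome 15 the shares were 4.23% and 1.05%. H4K16Ac regions differed more between the chromosomes, with medians of 984 bp in control and 863 bp in HFD on chromosome 12 and of 689 and 696 bp on chromosome 15. H3K4me3 intervals hardly differed in width, at 460 and 440 bp on chromosome 12 and 451 and 452 bp on chromosome 15.

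In control, the peaks of chromosome 12 were more numerous and had lower median enrichment than those of chromosome 15. The fold enrichment, the authors' ratio of the fragment pileup to the local background, had a median of 3.05 for H3K27me3 on chromosome 12 and 3.28 on chromosome 15. It was 3.69 against 4.47 for total H3, 2.83 against 3.30 for H4K16Ac and 3.15 against 3.78 for pan H4. Of the control H3K27me3 peaks, 54.6% on chromosome 12 and 62.8% on chromosome 15 had a q-value of 0.05 or less, q being the false discovery rate that the peak caller assigns. The control H4K16Ac peaks with a −log10 q of 5 or more made up 13.6% of those on chromosome 12 and 23.5% of those on chromosome 15.

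The local background under the peaks was higher on chromosome 12. For pan H4 it had a median of 3.48 fragments in control and 3.86 in HFD on chromosome 12, against 2.07 and 2.19 on chromosome 15. Total H3 gave 2.45 and 2.34 on chromosome 12 and 1.40 and 1.46 on chromosome 15. In the control total H3 list, 89.7% of the peaks of chromosome 12 and 67.6% of those of chromosome 15 lay where the local background was more than 5% above that of the whole list. The part of this background in the density and strength of the peaks was not tested.

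H3K27me3 peak counts were lower in HFD on both chromosomes, and by more on chromosome 12. The counts went from 2218 to 1641 on chromosome 12, a ratio of 0.740 (0.694 to 0.789), and from 1701 to 1619 on chromosome 15, a ratio of 0.952 (0.889 to 1.02). All autosomes together gave 0.853. Just inside these ends stood chromosome 20 at 0.764 and chromosome 9 at 0.908, whose intervals (0.711 to 0.821 and 0.856 to 0.963) overlap those of the chosen pair. By covered length, chromosome 12 was again lowest at 0.561, but chromosome 15 ranked 17 from the lowest at 0.699, below chromosome 9 at 0.718.

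The order of the chromosomes turned among the strongest H3K27me3 peaks. With q of 0.05 or less, chromosome 12 kept the lowest ratio of the autosomes, 0.248 (1211 control and 300 HFD peaks), and chromosome 15 had 0.363 (1068 and 388). With −log10 q of 5 or more, 523 control and 20 HFD peaks were left on chromosome 12, a ratio of 0.0382 (0.0232 to 0.0597). Chromosome 15 then had 467 and 8 peaks and the lower ratio, 0.0171 (0.00735 to 0.0340), so that the intervals overlap. Chromosome 12 ranked 14 and chromosome 15 ranked 4 from the lowest at this threshold. The HFD H3K27me3 list rested on a background pileup of 0.351 fragments per base against 0.880 in control, and its part in these ratios was not tested.

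**Figure D2:**
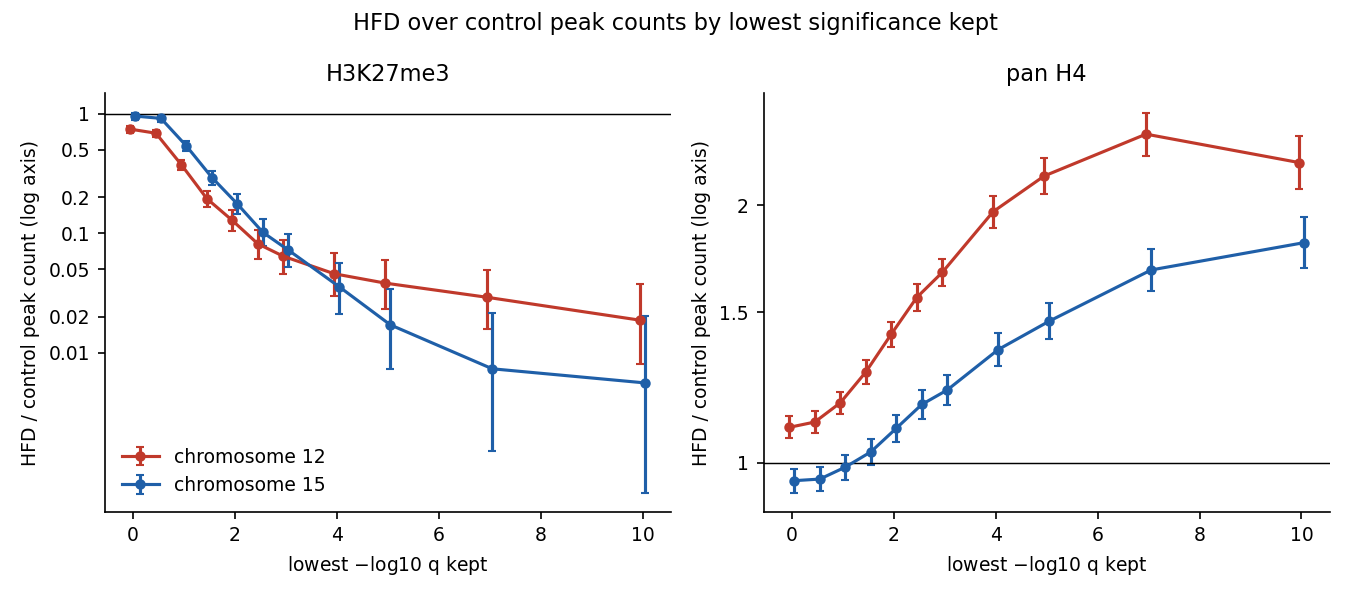
HFD over control peak count (log axis) for H3K27me3 and pan H4 against the lowest −log10 q kept, on chromosome 12 and chromosome 15, with 95% intervals. The H3K27me3 lines cross between cutoffs of 3 (0.0641 against 0.0721) and 4 (0.0458 against 0.0356), while the pan H4 line of chromosome 12 stays above that of chromosome 15.

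Over all deposited peaks, pan H4 separated the chromosomes in the opposite direction to H3K27me3. Its count went from 8678 to 9547 on chromosome 12, the highest ratio of the 20 autosomes at 1.10 (1.07 to 1.13). On chromosome 15 it went from 7409 to 7060, the lowest ratio at 0.953 (0.922 to 0.985), and the intervals of the chromosomes do not overlap. Their neighbours were close, with 1.09 (1.06 to 1.13) on chromosome 20 and 0.966 (0.935 to 0.998) on chromosome 17. By covered length chromosome 12 was again highest at 1.07, while chromosome 15, at 0.974, ranked 3 from the lowest. With −log10 q of 5 or more, the ratio of chromosome 12 was 2.17 (2.06 to 2.27), still the highest, and that of chromosome 15 was 1.46 (1.39 to 1.54), which ranked 2 from the lowest. The HFD pan H4 list had a background pileup of 1.80 against 1.64 in control.

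The other antibodies had ratios near 1 in all deposited peaks. H3K4me3 gave 0.964 (0.924 to 1.01) on chromosome 12 and 0.932 (0.891 to 0.975) on chromosome 15. Total H3 gave 1.02 (0.989 to 1.05) and 1.05 (1.01 to 1.08). H4K16Ac gave 0.981 (0.947 to 1.02) and 1.00 (0.964 to 1.04). For these 3 antibodies the intervals of the chromosomes overlap.

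Among the strong peaks, total H3 and H4K16Ac resembled pan H4. With −log10 q of 5 or more, total H3 had the highest ratio of the autosomes on chromosome 12, 1.15 (1.09 to 1.20), and the lowest on chromosome 15, 1.01 (0.958 to 1.07). H4K16Ac had 1.28 (1.17 to 1.40) on chromosome 12, again the highest, and 1.09 (1.02 to 1.18) on chromosome 15. H3K4me3 stayed near 1, with 0.992 on chromosome 12 and 1.00 on chromosome 15.

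**Figure D3:**
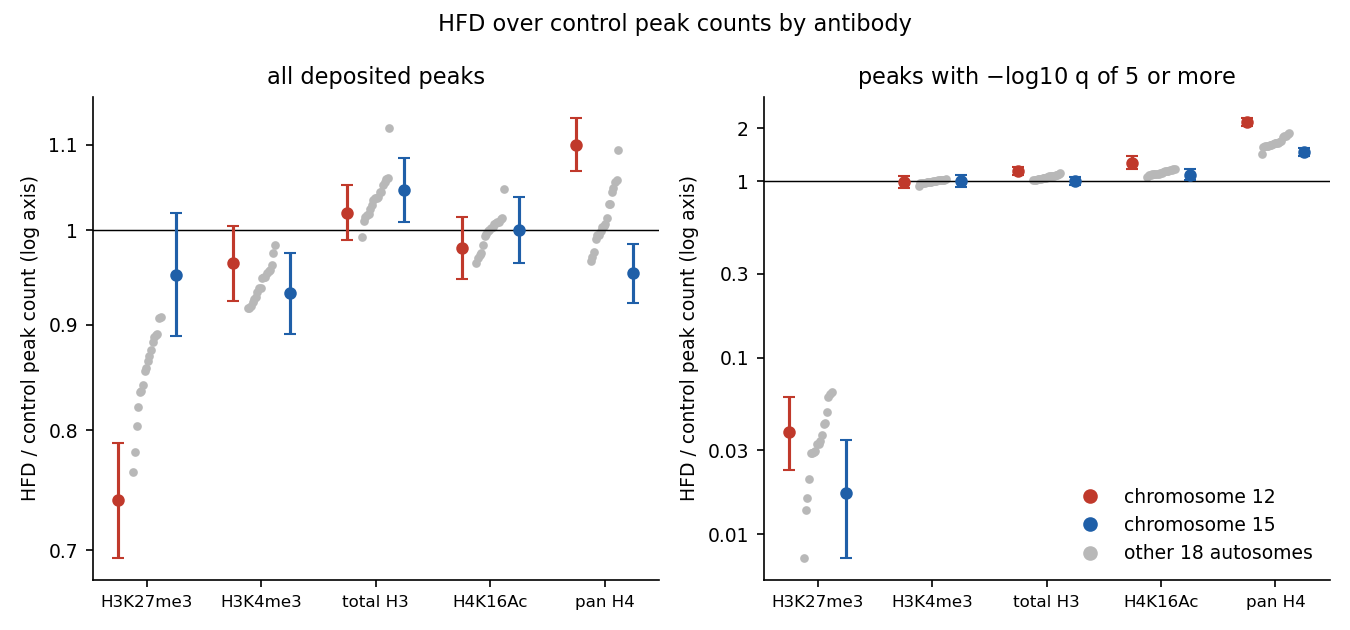
HFD over control peak count (log axis) by antibody, for all deposited peaks and for peaks with −log10 q of 5 or more, on chromosome 12, chromosome 15 and the other 18 autosomes, spread sideways in rising order. Bars are 95% intervals, and in all deposited peaks the chromosomes lie at opposite ends for H3K27me3 (0.740 and 0.952) and, in the other order, for pan H4 (1.10 and 0.953).

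Over the 20 autosomes, the H3K27me3 count ratio was lower where control density was higher (Pearson's r = −0.818, and −0.730 over the 18 autosomes left without chromosomes 12 and 15). Control density and this ratio share the control count, and all chromosomes share the same libraries, so that r is given as a description. For pan H4 the sign was the reverse (r = 0.734, and 0.603 over the 18). H4K16Ac (−0.641) and total H3 (−0.478) also had negative values over the 20, while H3K4me3 had 0.0398. With the ratio taken from peaks with −log10 q of 5 or more, r was 0.940 for pan H4 (0.884 over the 18). It was then 0.918 for H4K16Ac, 0.841 for total H3 and −0.535 for H3K4me3. At that threshold r was −0.212 for H3K27me3, and −0.441 over the 18.

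Fewer of the control H3K27me3 peaks of chromosome 12 than of chromosome 15 were met by an HFD peak, while the share of HFD peaks met by a control peak differed little. Over all sequences, 56.2% of the control H3K27me3 peaks had no HFD H3K27me3 peak on at least 1 bp. On chromosome 12, 1419 of 2218 had none and 36.0% were overlapped (34.1 to 38.0), and on chromosome 15, 931 of 1701 had none and 45.3% were overlapped (42.9 to 47.6). The order was the same among strong control peaks with −log10 q of 5 or more, of which 75.3% on chromosome 12 (71.5 to 78.8) and 84.2% on chromosome 15 (80.6 to 87.2) were overlapped, against 80.8% over all autosomes. Among the weakest, with q above 0.05, 18.7% and 21.2% were overlapped, with overlapping intervals, against 19.6%. From the HFD side, 48.9% of the HFD peaks of chromosome 12 (46.5 to 51.4) and 48.1% of those of chromosome 15 (45.6 to 50.5) overlapped a control peak. All of these shares come from the contrast that chose the chromosomes. With −log10 q of 5 or more in both lists, the shares of control peaks overlapped were 3.25% and 0.857%, in the other order.

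In the other lists, over peaks of any strength, chromosome 12 had the higher share of control peaks met by an HFD peak. Over all sequences, 41.6% of the control H3K4me3 peaks had none, as did 24.9% of those of total H3, 19.1% of H4K16Ac peaks and 26.0% of pan H4 peaks. For pan H4, 77.8% of the control peaks of chromosome 12 were overlapped (76.9 to 78.7) and 70.2% of those of chromosome 15 (69.1 to 71.2). H4K16Ac gave 84.6% and 78.0% and total H3 gave 75.8% and 73.0%, with intervals that do not overlap between the chromosomes. H3K4me3 gave 58.3% (56.9 to 59.8) and 56.2% (54.7 to 57.7), whose intervals overlap. Among control peaks with −log10 q of 5 or more the order held for pan H4, at 96.5% and 94.5%. Total H3 (93.1% and 93.0%) and H4K16Ac (98.3% and 98.5%) were then nearly level, and H3K4me3 was lower on chromosome 12 at 92.5% against 94.6%, each with overlapping intervals. With that threshold in both diets, total H3 was also lower on chromosome 12, at 71.2% against 75.1%, as was H3K4me3, at 74.8% against 77.5%. Each of these lists also held more peaks per Mb on chromosome 12, and the part of this density in the shares was not tested.

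Most H3K27me3 peaks lay on H3K4me3 peaks on both chromosomes. In control, 71.3% of the H3K27me3 peaks of chromosome 12 (69.4 to 73.2) and 75.7% of those of chromosome 15 (73.6 to 77.7) overlapped an H3K4me3 peak, against 74.998% over all autosomes. In HFD the shares were 59.1% and 59.2%, against 60.6%. Of the strong control peaks, 96.9% and 97.0% overlapped a strong H3K4me3 peak.

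Read from the H3K4me3 side and over peaks of any strength, the share of intervals with both marks differed by diet. It was below that of all autosomes on chromosome 15 in control and on chromosome 12 in HFD. Each interval counted once, 40.8% of the 4114 control H3K4me3 intervals of chromosome 12 (39.3 to 42.3) and 36.9% of the 3725 of chromosome 15 (35.4 to 38.4) carried H3K27me3, against 40.01% over all autosomes. In HFD, 25.2% of 4016 (23.9 to 26.5) and 28.3% of 3470 (26.9 to 29.9) carried it, against 28.6%. With −log10 q of 5 or more in both lists, and every listed H3K4me3 peak counted, repeats of an interval included, the HFD order turned. Then 2.77% of the HFD H3K4me3 peaks of chromosome 12 (1.96 to 3.91) and 0.779% of those of chromosome 15 (0.410 to 1.47) carried H3K27me3, against 2.06%. These were 31 and 9 H3K4me3 peaks, where only 20 and 8 HFD H3K27me3 peaks were left. Some of them shared an H3K27me3 peak, so that the intervals, which treat them as separate, are too narrow. In control the order held at that threshold, at 59.2% and 52.7%, against 58.8%. H3K4me3 intervals with no peak of the other 4 antibodies were fewer on chromosome 12, at 6.61% against 12.7% in control and 5.90% against 9.91% in HFD. The lists of those antibodies also held more peaks per Mb on chromosome 12, and the part of this density was not tested.

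In HFD, H3K27me3 peaks lay on total H3, H4K16Ac and pan H4 peaks more often on chromosome 12. H4K16Ac overlapped 94.5% of the control H3K27me3 peaks of chromosome 12 and 89.5% of those of chromosome 15, and 83.0% and 72.9% of the HFD peaks. With −log10 q of 5 or more in both lists, the control order turned, at 75.9% (72.1 to 79.4) and 87.2% (83.8 to 89.9), against 83.7% over all autosomes. Only 20 and 8 HFD H3K27me3 peaks were left at that threshold. Total H3 overlapped 75.7% and 67.7% of the HFD peaks, and pan H4 overlapped 79.0% and 69.5%. The HFD shares over all autosomes lay between those of the chromosomes, at 77.0% for H4K16Ac, 71.6% for total H3 and 73.9% for pan H4. For pan H4 in control the chromosomes were close, at 86.4% (84.9 to 87.8) and 88.1% (86.4 to 89.5). The HFD lists held more peaks per Mb on chromosome 12 than on chromosome 15, by 2.35 (H4K16Ac), 2.82 (total H3) and 2.85 times (pan H4). The part of this density in the shares was not tested.

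The diet ratio of the chromosomes differed most away from H3K4me3. Within 2500 bp of a control H3K4me3 peak, H3K27me3 peaks went from 1851 to 1275 on chromosome 12, a ratio of 0.689 (0.641 to 0.740), and from 1411 to 1109 on chromosome 15, a ratio of 0.786 (0.726 to 0.851). Farther than 2500 bp they numbered 367 and 366 on chromosome 12, a ratio of 0.997 (0.860 to 1.16). On chromosome 15 they went from 290 to 510, a ratio of 1.76 (1.52 to 2.04). All autosomes gave 0.739 within this distance and 1.46 beyond it.

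The H3K27me3 peaks beyond 2500 bp were weak and narrow in both lists. In HFD their median width was 360.5 bp on chromosome 12 and 370 bp on chromosome 15, and 6.56% and 7.84% of them had a q of 0.05 or less. Counting only peaks with a q of 0.05 or less, those beyond 2500 bp went from 89 to 24 on chromosome 12 and from 77 to 40 on chromosome 15. The higher HFD count of chromosome 15 was thus made of peaks with a q above 0.05. Of its 510 HFD peaks, 302 (59.2%) overlapped no peak of total H3, H4K16Ac or pan H4, against 120 of 366 (32.8%) on chromosome 12 and 54.8% over all autosomes. Chromosome 15 was thus nearer the autosomal share than chromosome 12. The lists of those 3 antibodies held more peaks per Mb on chromosome 12, and the part of this density was not tested. Of the 510, 31 overlapped a control H3K27me3 peak.

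**Figure D4:**
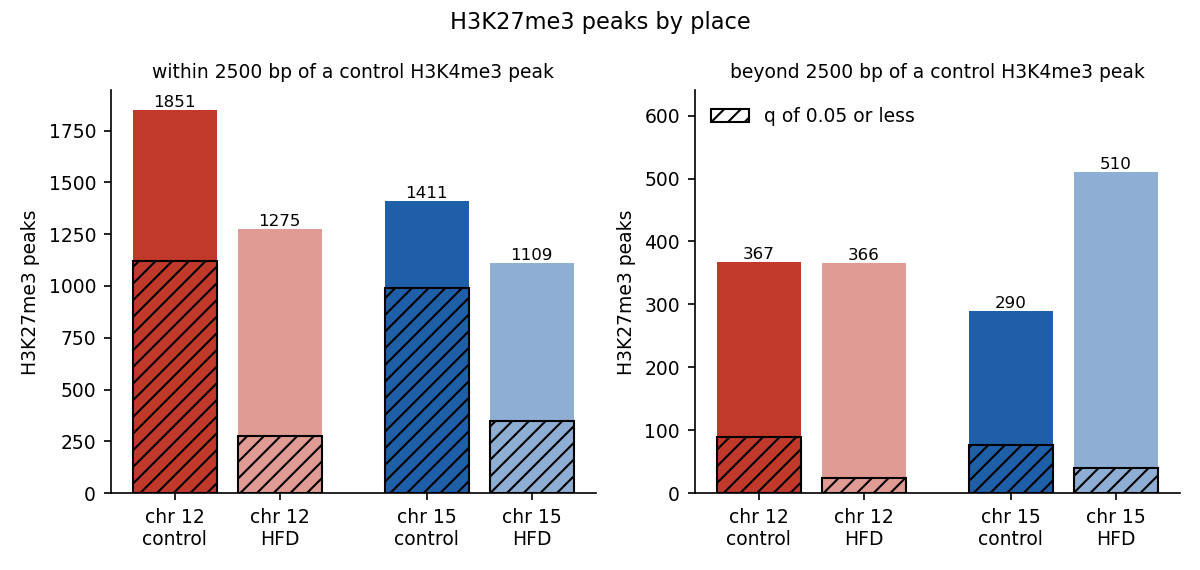
Number of H3K27me3 peaks (vertical axes, each from 0) within and beyond 2500 bp of a control H3K4me3 peak on chromosome 12 and chromosome 15, in control (dark) and HFD (pale), with hatching for peaks with a q of 0.05 or less. Beyond 2500 bp the bars of chromosome 12 are level at 367 and 366 and those of chromosome 15 go from 290 to 510, while the hatched part is lower in HFD in each pair.

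In all deposited peaks, H3K27me3 had the lower ratio on chromosome 12 in both places. Pan H4 peaks with −log10 q of 5 or more had the higher ratio on chromosome 12 in both. Within 2500 bp of H3K4me3 they went from 2109 to 4057 on chromosome 12, a ratio of 1.92 (1.82 to 2.03), and from 2280 to 3038 on chromosome 15, a ratio of 1.33 (1.26 to 1.41). Beyond it they went from 345 to 1256 on chromosome 12, a ratio of 3.64 (3.23 to 4.11), and from 472 to 992 on chromosome 15, a ratio of 2.10 (1.88 to 2.35). All autosomes gave 1.53 within this distance and 2.47 beyond it. H3K27me3 peaks of the same strength had the same order as pan H4 within it, at 0.0367 (0.0219 to 0.0579) and 0.0172 (0.00737 to 0.0341), whose intervals overlap. Beyond it, 5 control and 1 HFD H3K27me3 peaks were left on chromosome 12, and 1 and 0 on chromosome 15.

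The H3K27me3 peaks of chromosome 12 were spread more evenly over its bins than those of chromosome 15, as were the peaks of the other antibodies. In full 1 Mb bins, the control count of chromosome 12 ranged from 2 to 81 with a median of 41.5, and that of chromosome 15 from 2 to 60 with a median of 11. The densest 25% of the bins held 42.4% of the control H3K27me3 peaks of chromosome 12 and 50.9% of those of chromosome 15. Along both chromosomes the control counts of H3K27me3 and H3K4me3 were high in the same bins, with Pearson's r = 0.959 over 52 bins and 0.952 over 111 bins, which share libraries and base composition.

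Bins with fewer H3K27me3 peaks in HFD were more frequent on chromosome 12. Of all autosomal bins with 10 or more H3K27me3 peaks in the diets together, 16.5% were lower in HFD by 1.5 times or more and 8.18% were higher by as much. On chromosome 12, 15 of 52 bins (28.8%, 18.3 to 42.3) were lower and 3 were higher, and on chromosome 15, 12 of 101 (11.9%, 6.93 to 19.6) were lower and 7 were higher. The intervals of the lower shares overlap. Full bins held a median of 41.5 control peaks on chromosome 12 and 11 on chromosome 15, so that 1.5 times is fewer peaks there. For pan H4, where 0.647% of the bins were lower and 4.72% higher, chromosome 12 had 0 of 53 in either direction (interval up to 6.76%), and chromosome 15 had 1 lower and 5 higher of 112.

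**Figure D5:**
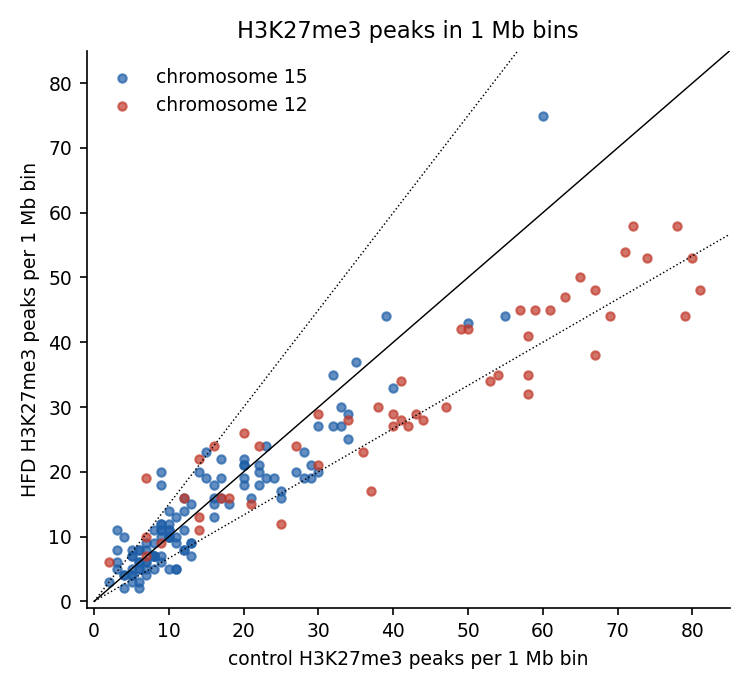
HFD against control H3K27me3 peak counts in 1 Mb bins of chromosome 12 and chromosome 15, where each point is a bin, the solid line marks equal counts and the dotted lines mark 1.5-fold. Bins of chromosome 12 with many control peaks lie below the solid line, while bins of chromosome 15 lie on both sides of it, the densest above it at 60 control and 75 HFD peaks.

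Bins were also grouped by their control H3K4me3 count. The ratio read in them is still the H3K27me3 ratio that chose the chromosomes, so that it remains a description. The 30 bins of chromosome 12 with 80 or more H3K4me3 peaks held 1761 of its 2218 control H3K27me3 peaks. In bins with 80 or more H3K4me3 peaks, the H3K27me3 ratio was 0.694 (0.645 to 0.747) in 30 bins of chromosome 12, 0.951 (0.778 to 1.16) in 4 bins of chromosome 15 and 0.763 in the other 18 autosomes. Among these 4 bins of chromosome 15, only chr15:5000001-6000000 rose, from 60 to 75. The others fell, from 50 to 43, 55 to 44 and 40 to 33, so that the value of chromosome 15 leans on that bin. With 40 to 79 it was 0.820 (0.703 to 0.957) in 15 bins of chromosome 12, 0.898 (0.815 to 0.988) in 37 bins of chromosome 15 and 0.872 elsewhere. With 20 to 39 it was 1.25 (0.855 to 1.85) in 4 bins of chromosome 12, 1.02 (0.891 to 1.17) in 40 bins of chromosome 15 and 0.966 elsewhere. In bins with fewer than 20 it was 1.45 (0.915 to 2.34) in 4 bins of chromosome 12, 1.06 (0.860 to 1.31) in 31 bins of chromosome 15 and 0.985 elsewhere. Chromosome 12 thus had most of its bins in the H3K4me3-rich class and chromosome 15 had few there.

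Of the 3 bins with the most control H3K27me3 peaks on chromosome 12, 2 also had the largest differences towards fewer peaks in HFD. chr12:17000001-18000000 had 81 control and 48 HFD peaks, chr12:51000001-52000000 had 79 and 44, and chr12:47000001-48000000, which was not among the 2, had 80 and 53. In the first of these, H3K4me3 went from 129 to 149 and pan H4 from 277 to 332. The largest gains on chromosome 12 were 7 to 19 at chr12:35000001-36000000 and 16 to 24 at chr12:1000001-2000000, which tied with 14 to 22 at chr12:21000001-22000000.

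On chromosome 15 the densest bin was also the one that gained most. chr15:5000001-6000000 had 60 control and 75 HFD H3K27me3 peaks, with 93 and 116 for H3K4me3 and 92 and 119 for H4K16Ac, while pan H4 went from 147 to 134. The next densest bins, chr15:33000001-34000000 and chr15:4000001-5000000, had 55 and 44 and 50 and 43 H3K27me3 peaks in control and HFD. With −log10 q of 5 or more, the densest bin held only 2 control and 0 HFD peaks. These next bins then held 28 and 0 and 16 and 0, so that the gain was one of weaker peaks. The other named bins were chr15:57000001-58000000, with 29 and 19, which tied with chr15:106000001-107000000 (30 and 20) for the next largest fall, and chr15:21000001-22000000, with 9 and 20.

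The widest control H3K27me3 peaks were met by narrower HFD peaks or by none. They were picked as the widest of the control list, a choice that favours narrower HFD peaks. On chromosome 12 the widest was chr12:13803699-13812030, which was 8332 bp wide, had a fold enrichment of 2.06 and met no HFD peak, although 9 H3K4me3 peaks lay on it in each diet. chr12:51247754-51251942, of 4189 bp, was met by an HFD peak of 348 bp, and chr12:3353472-3357371, of 3900 bp, by one of 3836 bp that lay within it. On chromosome 15, chr15:47960542-47965583 was 5042 bp wide and was met by 2 HFD peaks that covered 42.4% of it. chr15:2372967-2377441, of 4475 bp, was met on 71.6% of its bases and chr15:90175632-90179788, of 4157 bp, on 7.12%.

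The control H3K27me3 peak with the highest −log10 q was listed in control only on each chromosome. chr12:24796256-24796717 had a fold enrichment of 13.8 and a −log10 q of 148, and chr15:47994302-47994685 had 15.4 and 147. Neither met a control H3K4me3 peak or an HFD H3K27me3 peak. The peaks named here were picked by their −log10 q in control, a choice that favours weaker HFD peaks or none. The next on chromosome 12, chr12:37479519-37480473 and chr12:11406569-11407478, had fold enrichments of 10.1 and 10.7 in control and 3.65 and 5.10 in HFD. On chromosome 15, chr15:24253944-24254830 had 10.9 in control and 4.44 in HFD, and the strongest control H3K4me3 peak of this chromosome, with a fold enrichment of 20.3 at chr15:24253963-24254888, lay on it.

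The strongest HFD H3K27me3 peaks lay at sites that carried peaks of nearly every antibody. Their choice by −log10 q in HFD likewise favours higher values in HFD than in control. chr15:78122548-78122980 had a peak in all 10 lists that began at the same base and was 429 to 441 bp wide, with a fold enrichment of 15.5 in control and 15.2 in HFD for H3K27me3 and of 27.1 and 26.9 for pan H4. On chromosome 12, chr12:9540289-9540570 had 7.40 in control and 11.0 in HFD and chr12:9549200-9549474 had 6.999 and 10.3. No control H3K4me3 peak lay at the first, while the second held the control H3K4me3 peak with the highest −log10 q of the chromosome. chr12:1509276-1510836 had 4.92 and 5.06, chr15:18498378-18499413 had 3.89 and 6.93, and chr15:12944291-12944785 had 4.16 and 6.77, and each of these 3 had a peak in all 10 lists.

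The widest control H4K16Ac regions were alike in the diets. chr12:12385538-12394347 was 8810 bp wide and lay within an HFD region of 9023 bp, and chr15:106613902-106621251 was 7350 bp wide and was met by an HFD region of 6356 bp.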

How the data were processed

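Each of the 10 deposited lists holds MACS2 peaks called by the authors on the 3 libraries of 1 antibody and diet together, after alignment to rn6 with bowtie2. MACS2 options, duplicate handling and any input were not given in the sources used here. From MACS2 the authors deposited a score (the −log10 q times 10, in whole numbers), a fold enrichment (a ratio to the local background), a −log10 p-value and the q-value as −log10 for each peak. The 6 narrow lists repeat an interval for each of its summits, and the 4 broad lists (H3K27me3 and H4K16Ac) give averages over the region. Peaks with q up to 0.50 are included.

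Peaks on chromosomes 12 and 15 were counted with Python 3.11.15, numpy 2.4.6, pandas 2.3.3 and scipy 1.17.1, and plotted with matplotlib 3.10.9. An overlap needed at least 1 bp, widths and shares of H3K4me3 intervals used each interval once, and a peak belonged to the 1 Mb bin of its midpoint. Intervals at 95% are Wilson for shares, exact Poisson for densities, and exact conditional binomial for ratios of counts. Pileup and local background were solved from the fold enrichment and p-value, which gave a whole-number pileup within 0.1% for at least 99.8% of the narrow peaks and for 5.80% to 35.1% of the broad peaks, and medians are over the peaks solved. Interval functions equalled a base by base count in 300 of 300 simulated draws.

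Samples were grouped from their labels. The chromosomes and the rules were chosen with earlier results of these data known. Regions named in the text were, on each chromosome, the 3 widest control H3K27me3 peaks, the 3 with the highest −log10 q in each diet, the widest control H4K16Ac and the strongest control H3K4me3 peak, the 3 densest control H3K27me3 bins, and the 2 bins with the largest fall and the 2 with the largest gain. Alternatives were 2 q thresholds, lists of equal length, intervals counted once or joined, division by other ratios, an overlap of 50%, a distance of 500 bp, another length and the loss of the densest bin. No genome or gene annotation of rn6 was used here, so that no gene is named and no sequence is shown.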

Additional observations from a re-analysis of the deposited data

How the results depend on the processing

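No paired analysis was possible because the 3 libraries of a diet share 1 peak list, so replicates were neither blocked nor left out. A value was taken to move when it changed by more than 1.5 times or, for a share, left its 95% interval, and 233 of 302 values stayed. A ratio near 1 could therefore cross 1 and still count as stayed. The H3K27me3 count ratio of chromosome 15 did so, from 0.952 to 1.12 when divided by the autosome ratio. The H4K16Ac count ratio of chromosome 12, from 0.891 to 1.28 over the alternatives, did so too. The count of values that stayed thus does not show that an order of the chromosomes held. No cause of a move was tested, and the thresholds and equal lengths leave fewer peaks by construction.

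With −log10 q of 5 or more in every list, the H3K27me3 count ratio was 0.0382 on chromosome 12 and 0.0171 on chromosome 15, and the covered-length ratio was 0.0340 and 0.0106. Near H3K4me3 it was 0.0373 and 0.0177, and beyond it 0.0714 and 0, the last a reversal from 1.76. Pan H4 had count ratios of 2.17 and 1.46 and a covered-length ratio of 1.90 on chromosome 12. Peaks per Mb of chromosome 12 over chromosome 15 were 5.28 for HFD H3K27me3 and 1.39 for control H4K16Ac. Median H3K4me3 widths were 833.5 bp in control and 749 bp in HFD on chromosome 12, and 780 and 746 bp on chromosome 15. Control peaks overlapped in HFD, on chromosome 12 and then 15, made up 3.25% and 0.857% (H3K27me3), 74.8% and 77.5% (H3K4me3), 71.2% and 75.1% (total H3), 76.7% and 74.9% (H4K16Ac), and 88.8% and 85.7% (pan H4). H3K27me3 peaks on H3K4me3 made up 96.9% and 97.0% in control and 95% and 100% in HFD, the last over 8 peaks.

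With q of 0.05 or less, in the same order, the H3K27me3 count ratio was 0.248 and 0.363, the covered-length ratio 0.178 and 0.239, the ratio near H3K4me3 0.249 and 0.349, and beyond it 0.235 and 0.5, the last a reversal. Control peaks overlapped in HFD made up 17.9% and 25.6% (H3K27me3), 60.4% and 61.4% (H3K4me3), 82.1% on chromosome 12 (H4K16Ac), and 80.2% and 73.7% (pan H4). H3K27me3 peaks on H3K4me3 made up 84.7% and 87.9% in control and 83.3% and 84.5% in HFD.

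With lists of equal length, the overlapped shares were 40.3% and 49.3% (H3K27me3) and 74.5% and 71.6% (total H3), and the ratio beyond H3K4me3 was 1.498 on chromosome 12. With an overlap of at least 50% they were 23.2% and 30.9% (H3K27me3), 50.5% and 50.9% (H3K4me3), 70.7% and 69.1% (total H3), 71.2% and 68.0% (H4K16Ac), and 72.4% and 65.3% (pan H4). At that overlap, H3K27me3 peaks on H3K4me3 made up 56.4% and 63.7% in control and 47.8% and 51.1% in HFD. The order of the chromosomes in the count ratio beyond H3K4me3 was the same with H3K4me3 peaks of the HFD list (0.967 and 1.65) and of both diets (1.23 and 2.52), which were chosen after seeing the data.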
